A study of Drosophila melanogaster with 2 samples.

Results

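Peaks of the tagged Drosophila protein hng2 that flank a promoter without sitting on its start site were described here. They are the peaks of the optimal list whose summit, the position of highest signal, lay over 100 and up to 500 bp upstream or downstream of the nearest transcription start site (TSS) of a protein-coding gene. The rule used position alone, and 789 of the 3170 peaks met it (24.9%, 95% exact interval 23.4 to 26.4). The peaks come from chromatin immunoprecipitation with sequencing (ChIP-seq) on whole embryos, 0 to 14 h old and of mixed sex, from a transgenic Drosophila melanogaster line that stably expresses CG8359 (hng2) with GFP at its C terminus. The single group held 2 biological replicates, numbered 2 and 3. The sources used here give neither the promoter that drives the fusion nor whether the untagged gene is still present. One label names an antibody against GFP and another names CG8359, a conflict the peak lists cannot settle. The authors called peaks against control libraries that were not analysed here, and no control group is among the samples. The peaks are set beside 422 core promoter peaks, with a summit 0 to 100 bp from such a TSS, and 1959 distal peaks, with a summit over 500 bp away.

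hng2 (hinge2) belongs to a fly family of proteins with a MADF domain, which binds DNA, and a BESS domain, which binds other proteins. The hinge genes hng1, hng2 and hng3 are named for their role in the hinge of the wing. A TSS lies in the core promoter, where RNA polymerase and the general transcription factors assemble, often at elements such as the TATA box, the Initiator or the DNA replication-related element (DRE). The sequence just upstream often holds sites for other DNA-binding factors, such as the GAGA factor, which binds repeats of GA.

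Sequences of 5 flanking summits and 1 core summit are printed to show the sequences behind the comparisons below. Each flanking window reaches 100 bp to each side of the summit, reads along the strand of the nearest gene, and comes from the RefSeq Release 6 genome (dm6). The first, at Mpi, is among the strongest flanking peaks found in both replicates. The other flanking windows are among the strongest members that hold the 7-base word ACAGTGG or its close relatives, the word CAGTGTA or the word CACAGTG, which were the most enriched words of the set. Capitals mark these words or their reverse complements, and GAGAG on either strand. The last line shows 99 bases at the core peak of eEF1gamma, a translation elongation factor gene, with its DRE in capitals.
Mpi (chr3R:9759332-9759532, plus strand): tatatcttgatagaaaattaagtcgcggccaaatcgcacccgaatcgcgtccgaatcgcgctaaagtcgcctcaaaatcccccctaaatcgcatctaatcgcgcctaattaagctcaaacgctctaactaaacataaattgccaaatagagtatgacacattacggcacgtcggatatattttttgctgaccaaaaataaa
CG13921 (chr3L:1746689-1746889, plus strand): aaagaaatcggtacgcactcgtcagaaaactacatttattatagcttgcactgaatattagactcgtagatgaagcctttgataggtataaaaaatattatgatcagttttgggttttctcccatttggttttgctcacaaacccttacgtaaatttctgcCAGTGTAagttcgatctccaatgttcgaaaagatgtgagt
RluA-1 (chr2L:10474424-10474624, minus strand): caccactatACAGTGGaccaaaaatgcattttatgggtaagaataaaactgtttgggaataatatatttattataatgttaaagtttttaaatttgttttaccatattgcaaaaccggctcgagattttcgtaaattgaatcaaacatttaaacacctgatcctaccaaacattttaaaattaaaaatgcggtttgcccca
for (chr2L:3632410-3632610, minus strand): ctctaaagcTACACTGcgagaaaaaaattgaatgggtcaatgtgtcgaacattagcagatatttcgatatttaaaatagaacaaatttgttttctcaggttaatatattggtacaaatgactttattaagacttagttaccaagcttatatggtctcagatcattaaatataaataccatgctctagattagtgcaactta
Rtnl1 (chr2L:4997568-4997768, minus strand): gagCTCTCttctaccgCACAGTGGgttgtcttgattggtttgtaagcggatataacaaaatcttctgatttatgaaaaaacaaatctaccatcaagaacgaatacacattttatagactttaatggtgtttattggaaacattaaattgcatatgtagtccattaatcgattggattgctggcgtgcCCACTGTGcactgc
eEF1gamma (chr3R:29220073-29220171, plus strand): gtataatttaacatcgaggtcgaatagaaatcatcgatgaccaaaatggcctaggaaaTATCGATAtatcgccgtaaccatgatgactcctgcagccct

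The window at Mpi held no GAGAG on either strand and none of the 3 words. It is richer in G and C (41.3%) than the windows at RluA-1 and foraging (for), at 29.4% and 29.9%. The window at Rtnl1 held 4 matches to the 3 words, since the words starting ACAGT and CACAG overlap there on both strands.

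Replicate 3 stood apart from replicate 2 in features that touch every result on position and sequence. To compare them, the 3170 peaks of highest signal were taken from each replicate's own relaxed list of 30000. In these, the mean GC content of flanking windows was 33.9% in replicate 2 and 40.4% in replicate 3, and 85.6% and 64.0% of the flanking summits lay upstream. The signal is the peak caller's value against its control and is not scaled between lists. Without read counts in the lists, library depths are unknown. Intervals and Fisher tests reflect only the counting error of peaks, genes or windows. Peaks of 1 immunoprecipitation are not replicates, and 49 genes own 2 or more members.

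The share of flanking peaks was alike in both replicates. It was 25.6% in replicate 2 (813 peaks) and 24.3% in replicate 3 (770 peaks), 24.97% ± 0.959 (SD, n = 2). Sequence at that distance makes up 8.51% of the 137547960 main-arm bases. Core promoter peaks took 11.96% of the list in replicate 2 and 18.9% in replicate 3.

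Flanking summits lay mostly upstream of the gene. Of the 789, 653 were upstream and 136 downstream, an upstream share of 82.8% (95% exact interval 79.9 to 85.3), whereas 43.8% of the bases at that distance are upstream. Of the core summits 59.0% (54.1 to 63.7) were upstream. The difference of 23.8 percentage points (95% interval 18.4 to 29.1) passed the test (Fisher's exact p = 4.43e-18, Benjamini-Hochberg adjusted over 5 comparisons of peak classes). It was 19.1 points in replicate 2, with upstream shares of 85.6% for flanking and 66.5% for core peaks. In replicate 3 it was 15.2 points, with 64.0% for flanking and 48.8% for core peaks. Both replicates thus gave the same direction, 17.2 points ± 2.78 (SD, n = 2), while the upstream share of flanking peaks itself was 74.8% ± 15.3. The difference was 12.8 points among windows with 35 to 45% GC, a limit chosen after the values were seen.

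Summit density was highest 100 to 200 bp upstream of the TSS. Bins of 100 bp exclude their nearer end. This bin held 296 summits, or 197 per Mb of sequence, against 23.0 per Mb over the main arms. Further upstream the density was 141 per Mb at 200 to 300 bp, 82.7 at 300 to 400 bp and 65.4 at 400 to 500 bp. On the downstream side it was 38.7 per Mb at 100 to 200 bp (67 summits). In the next bins the optimal list had 13.2, 13.0 and 16.6 per Mb, below the main-arm average. Replicate 2 had 12.03, 14.2 and 21.01 per Mb in these bins, also below that average. Replicate 3 had 27.7, 22.9 and 24.8 per Mb there, near or above it, so the low density was not seen in replicate 3. The replicates differed most just downstream. At 100 to 200 bp upstream, replicate 2 had 216 summits per Mb and replicate 3 had 152. At 100 to 200 bp downstream they had 23.7 and 89.6 per Mb. In replicate 3 the bins on either side of the TSS were the densest, with 165 per Mb upstream and 164 downstream.

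**Figure D1:**
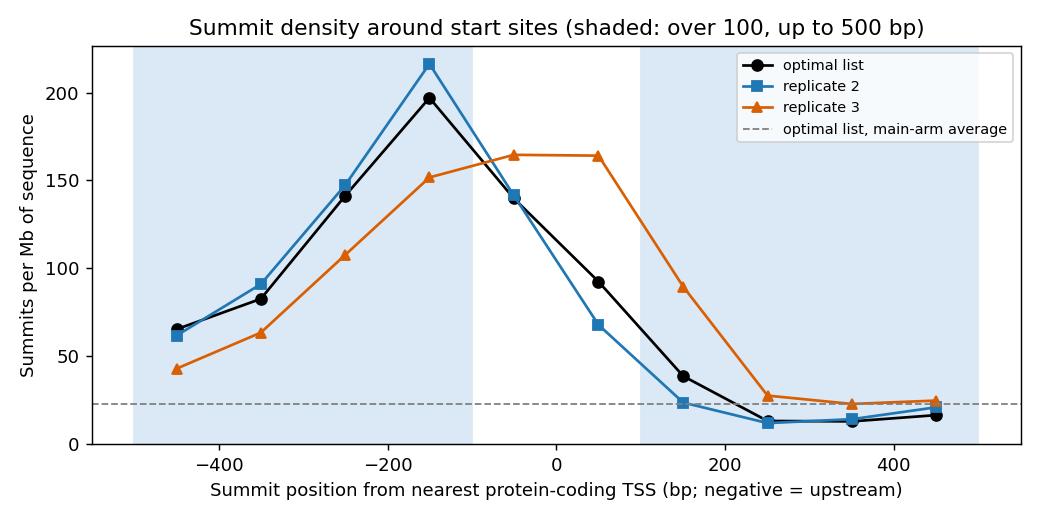
Summits per Mb of sequence in 100-bp bins of position from the nearest protein-coding TSS, for the optimal list and for the 3170 strongest peaks of each replicate. The optimal list and replicate 2 peak in the bin 100 to 200 bp upstream, at 197 and 216 per Mb, while replicate 3 is densest within 100 bp of the TSS. The dashed line is the main-arm average of 23.0 per Mb.

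Upstream members lay between genes or in introns. Of the 653, 339 were intergenic (51.9%, against 49.6% of bases on that side) and 262 intronic (40.1% against 29.2%). Of these intronic members 214 (81.7%) lay inside the gene whose TSS was nearest, so they sat before an internal start site of that gene. Coding exons held 3 upstream members (0.459% against 7.24% of bases) and 3' UTRs held 10 (1.53% against 8.28%). Of the 136 downstream members, 67 were in 5' UTRs (49.3% against 25.2% of bases) and 59 in introns (43.4% against 25.2%). Coding exons, which make up 47.2% of the bases on that side, held 9 of them (6.62%). Coding exons thus had few summits on both sides.

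Divergent promoters made up a smaller share of flanking than of core peaks, a comparison made without a test. A summit was called divergent when it lay upstream of TSSs on both sides within 1000 bp. This was so for 180 of all 789 members (22.8%, 95% exact interval 19.9 to 25.9), against 172 of 422 core summits (40.8%, 36.0 to 45.6). On the upstream side alone it was 174 of 653 members (26.6%), against 130 of 249 core summits (52.2%). Of all positions 300 bp upstream of a TSS 22.8% were divergent, and of those 50 bp upstream 30.6%. These positions were not screened for another TSS within 100 bp. A summit between divergent starts that lie close together is core by definition, so the rule fixes part of the difference between classes. The nearest TSS was the outermost of its gene for 62.1% of flanking and 71.3% of core peaks, against 71.2% of all TSSs. The called interval reached over the TSS in 331 flanking peaks (42.0%) and in 97.4% of core peaks. Most peaks of both classes were 400 bp wide, so the distance rule fixes much of this difference. Another optimal summit lay within 1000 bp of 123 members (15.6%). Rtnl1, a reticulon gene named after the values were seen, owned 5 members at its several starts, with signals between 171 and 977. CG18135 owned 4.

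The flanking peaks had a median signal of 236, against 216 for core and 205 for distal peaks. The members ran from 137 to 22810, with a lower quartile of 169 and an upper one of 370. Above the median signal of the whole list lay 443 flanking peaks (56.1%), against 51.7% of core peaks and 47.2% of distal peaks. The difference from distal peaks was 8.98 points (95% interval 4.85 to 13.1, adjusted Fisher's exact p = 5.13e-05). It was 12.4 points in replicate 2 (adjusted exact p = 7.71e-09) but -0.426 points in replicate 3 (adjusted exact p = 1), so the call rests on replicate 2. The difference from core peaks was 4.49 points, with an interval of -1.39 to 10.4, and did not pass (adjusted exact p = 0.244). Most members, 678 (85.9%), had the same width of 400 bp.

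The strongest member, and the strongest peak of the whole list, lay 143 bp upstream of an internal TSS of tkv (FBgn0003716), which encodes a receptor for the BMP ligand Dpp. Its summit is on 2L, in an intron of a longer transcript, and its signal was 22810. In the replicates the signal was 9188 and 13798, rank 1 in both. Next came Mpi (FBgn0286506, 3R, summit 9759432), a mannose phosphate isomerase gene, 190 bp upstream with a signal of 11248. It ranked 6 in replicate 2 and 3 in replicate 3, with summits 187 and 194 bp upstream of the TSS. The summit at loco (FBgn0020278, 3R, 22633234), a regulator of G-protein signalling, lay 216 bp upstream with a signal of 5208 and ranks 17 and 23. The summit at ush (FBgn0003963, 2L, 491045), a cofactor of GATA factors, lay 210 bp downstream in a 5' UTR with a signal of 3041. In replicate 2 it was again at 210 bp and in replicate 3 at 152 bp.

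The 25 strongest members held by both replicates had signals from 1179 to 22810. They were 19 upstream and 6 downstream. The 6 downstream ones lay in ush, mam (a coactivator of Notch, 147 bp, signal 2051), bs (the fly serum response factor, 135 bp, signal 1669), CG43737 and, at 138 and 223 bp from internal starts, CG18135. Upstream ones included Dop1R1 (a dopamine receptor, 221 bp, signal 2969), px (a wing vein gene, 202 bp, signal 2076) and ph-p (a Polycomb group gene, 481 bp, signal 1662). Reads at ph-p may be shared with its neighbouring copy ph-d, so its value is uncertain. Also upstream were Art3 (an arginine methyltransferase, 128 bp, signal 1577) and cher (filamin, 478 bp, signal 1415). The rest were CG2841, CG33939, fusl, CG8349, CG8492, Tina-1, CG1888, CG18549, Fkbp14, CG13921 and CG4374. The rule left out the peak at rank 7, 285 bp upstream of Phb2, a prohibitin gene (signal 10613). It ranked 6 in replicate 3, with the same distance, and no summit within 100 bp was found in replicate 2's relaxed list.

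Wide and narrow members differed in composition, a pattern seen after the values were known and given without a test. The 22 members wider than 400 bp had a median signal of 2334 and a mean GC content of 46.7% ± 5.79 (SD over peaks), and 9 of them were downstream. The 89 members narrower than 400 bp had a median signal of 664, a mean GC of 34.0% ± 6.35, and 6 were downstream. Nearly all of both were held by both replicates (21 of 22 and 87 of 89). Of the 25 named above, 17 were wider than 400 bp.

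Both replicates held 392 members among their own 3170 strongest peaks (49.7%, 95% exact interval 46.1 to 53.2), against 51.9% of core and 50.4% of distal peaks. The share over the whole optimal list was 50.4%. The difference from core peaks was -2.21 points (95% interval -8.08 to 3.69, adjusted Fisher's exact p = 0.587) and that from distal peaks -0.700 points (-4.82 to 3.43, adjusted exact p = 0.768). Neither passed, and the intervals leave room for differences of several points. The direction turned with the list used. In replicate 2's own list flanking minus core was -6.91 points (adjusted exact p = 0.0491) and in replicate 3's it was 10.98 points (adjusted exact p = 0.000121). Flanking minus distal was -6.69 points in replicate 3's own list (adjusted exact p = 0.00317). Replicate 2 alone held 294 members, replicate 3 alone 82 and neither 21. For core peaks these counts were 107, 82 and 14.

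The members that only 1 replicate held differed in side and base content. Of the 294 held by replicate 2 alone, 89.5% were upstream, with a mean GC of 32.2% ± 6.51 (SD over peaks). Of the 82 held by replicate 3 alone, 46.3% were upstream, with a mean GC of 44.6% ± 8.47. Among the 392 held by both, 86.0% were upstream, with a mean GC of 35.2% ± 8.02. What part base composition has in this was not tested.

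**Figure D2:**
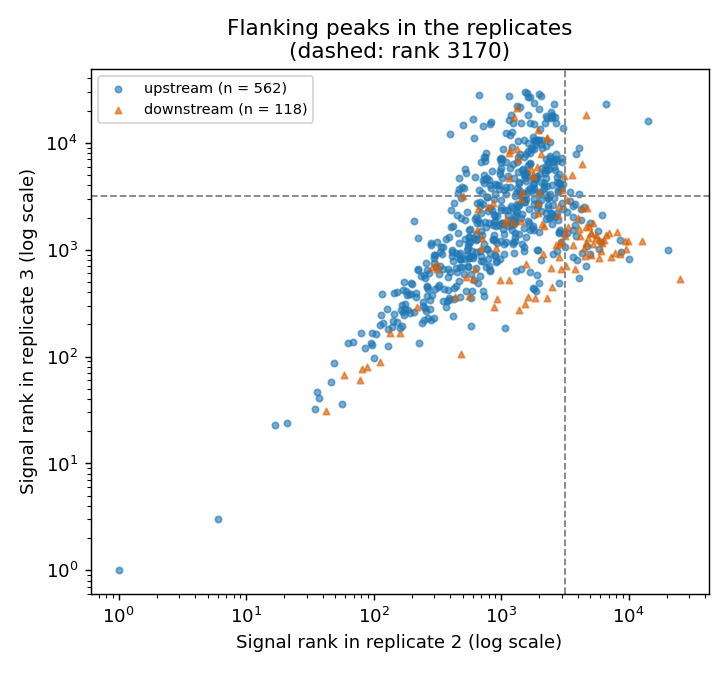
Signal rank of each flanking peak in replicate 2 (x) and replicate 3 (y), log scales, for the 680 members with a summit within 100 bp in both relaxed lists. The strongest members lie near the diagonal, while many weaker ones rank within 3170 (dashed lines) in 1 replicate only. Downstream members (triangles) make up much of the group at the lower right, ranked well in replicate 3 and poorly in replicate 2.

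The position of the summit held up better in replicate 2 than in replicate 3. In the relaxed list of replicate 2, 768 members (97.3%) had a summit within 100 bp, and 727 of these summits (94.7%) were themselves over 100 and up to 500 bp from a TSS. In replicate 3 it was 698 members (88.5%), of which 614 (88.0%) kept that distance, 70 fell in the core promoter and 14 beyond 500 bp. The replicate's summit was within 20 bp of the optimal one in 77.6% of matches in replicate 2 and 53.0% in replicate 3. In both replicates 577 of 680 matched members (84.9%, 95% exact interval 81.9 to 87.5) remained flanking.

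Stronger members were upstream more often than weaker ones, as a description within the set. In 5 groups of equal size ordered by signal, highest first, the upstream share was 89.2%, 87.3%, 88.0%, 74.7% and 74.5%. The mean GC content was 34.9%, 33.9%, 33.5%, 36.2% and 37.0%. The share held by both replicates was 97.5%, 74.7%, 48.1%, 24.1% and 3.82%, which the rank limit fixes in large part. The word ACAGTGG was in 13.9% of windows of the strongest group and in 8.86%, 5.70%, 6.33% and 9.55% of the others.

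Flanking windows were poor in G and C at the summit. Their mean GC content was 35.1% ± 8.36 (SD over peaks), against 41.7% ± 8.88 at core peaks and 37.1% ± 7.50 at distal peaks. Flanking minus core was -6.64 points in the optimal list, -5.34 in replicate 2 and -4.92 in replicate 3, -5.13 ± 0.296 (SD, n = 2). The order thus held in both replicates although their levels differed. Upstream members had 33.7% and downstream members 41.9%. Windows 300 bp from every TSS had 38.6% on the upstream and 46.6% on the downstream side. Upstream members minus these upstream windows was -4.90 points. The difference is not matched for distance, since flanking summits had a median distance of 213 bp. Core windows minus all windows centred on a TSS (42.3%) was -0.518 points.

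The low GC of upstream members was a narrow dip, which distal peaks also showed. In 20-bp bins it was 30.04% in the bin just before the summit and 30.6% in the bin just after. It reached 35.7% 80 to 100 bp before the summit and 42.2% 100 to 120 bp past it, on the side of the gene. Downstream members had 42.0% and 41.3% in the bins beside the summit, and core peaks 40.8% and 42.8%. Distal peaks dipped to 34.6% and 34.7% in these bins, with 43.8% 180 to 200 bp before the summit.

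**Figure D3:**
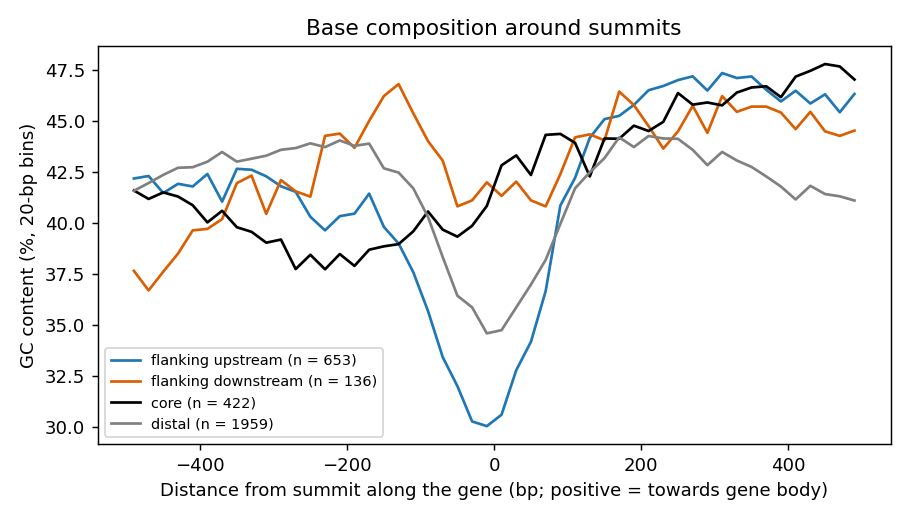
GC content in 20-bp bins along the gene's strand, up to 500 bp on each side of the summit, for upstream members, downstream members, core peaks and distal peaks. The profile of upstream members dips to 30.04% at the summit and returns above 40% within about 100 bp on the side of the gene. Distal peaks dip to 34.6%, while downstream members and core peaks stay near or above 40% there.

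The DRE and 3 other motifs were rarer at flanking than at core summits. Of 18 short motifs searched on both strands, 7 (38.9%) differed in the share of windows reaching 100 bp to each side of the summit with a match between flanking and core peaks, 4 lower and 3 higher (Fisher's exact test, Benjamini-Hochberg adjusted over the 18). The DRE (TATCGATA) was in 1.39% of flanking windows, against 8.06% of core windows and 1.505% of all windows 300 bp from a TSS (adjusted exact p = 1.67e-07). Its shorter form TATCGAT, bound by the insulator protein BEAF-32 and contained in the DRE, was in 3.68%, against 13.5% and 4.34% (adjusted exact p = 2.03e-08). Motif 1 (GGTCACAC), which the protein M1BP binds, was in 1.14%, against 4.50% and 1.22% (adjusted exact p = 0.00165). The E-box CAGCTG was in 7.35%, against 13.7% and 9.67% (adjusted exact p = 0.00165). The flanking shares of all 4 lay below those of all windows, which take in both sides of a TSS. Among upstream members the shares were 1.53% (DRE), 4.13% (TATCGAT), 1.07% (Motif 1) and 6.74% (CAGCTG). Windows 300 bp upstream of a TSS had 2.67%, 6.23%, 2.04% and 8.84%, in the same order. Windows centred on any TSS held them in 6.44% (DRE), 12.7% (TATCGAT), 5.68% (Motif 1) and 13.4% (CAGCTG), so the core shares lay near those of start sites in general, and below for Motif 1. By the rule a flanking window reaches no protein-coding TSS, while a core window holds one. How much of the differences between the classes follows from this was not tested. The call for CAGCTG was lost in replicate 3 alone (adjusted exact p = 0.184), in windows reaching 200 bp to each side (adjusted exact p = 0.105) and in windows of 35 to 45% GC (adjusted exact p = 0.784). The call for Motif 1 was lost in the last of these (adjusted exact p = 0.163).

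Words rich in A and T were commoner at flanking than at core peaks, and some were as common at distal peaks. The TATA box word TATAAA was in 41.1% of flanking windows, against 27.0% of core windows and 22.6% of all windows (adjusted Fisher's exact p = 7.58e-06). An A tract (AAAAAAA) was in 22.3%, against 16.4% and 15.8% (adjusted exact p = 0.0416), and the E-box CATATG in 8.24%, against 3.55% and 5.41% (adjusted exact p = 0.00445). Distal peaks held TATAAA in 30.9%, the A tract in 22.3% and CATATG in 9.04% of windows. Windows 300 bp upstream of a TSS held TATAAA in 30.3%, against 44.7% of the upstream members' windows. For the A tract these shares were 19.2% and 23.3%, and for CATATG 5.99% and 8.27%. In windows of 35 to 45% GC, 239 flanking and 144 core, none of these 3 passed the test, and the difference for TATAAA was 0.122 points. There the difference, flanking minus core, was -10.96 points for the DRE and -13.9 points for TATCGAT (adjusted exact p = 0.000948 for both). The A tract passed only with the other sets of TSSs. Of these, TSSs of coding transcripts gave the same 789 flanking and 422 core peaks as the main run, so that run could not differ. The A tract did not pass in either replicate alone, above the median signal, with either other distance limit or with either other window. Its adjusted exact p there ran from 0.0543 to 0.722. The E-box CATATG did not pass in replicate 2 alone (adjusted exact p = 0.161) or above the median signal (adjusted exact p = 0.134). Among peaks above the median signal no motif was higher at flanking peaks, with an adjusted exact p of 0.0512 for TATAAA.

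The GAGA repeat did not pass the test between the classes. GAGAGAG was in 6.46% of flanking and 6.16% of core windows, against 3.00% of all windows (flanking against core, adjusted Fisher's exact p = 1). The shorter GAGAG was in 25.2% and 25.4%, against 21.0%. Windows centred on any TSS held GAGAGAG in 4.68% and GAGAG in 24.97%. The core share of GAGAG lay near that of start sites in the optimal list, but not in either replicate's own list. There core windows held GAGAG in 15.6% in replicate 2 and 39.2% in replicate 3, and flanking windows in 23.5% and 34.2%. For GAGAGAG, core windows had 2.90% in replicate 2 and 11.7% in replicate 3, and flanking windows 5.17% and 12.1%. In replicate 2's own peaks GAGAG was 7.93 points commoner at flanking than at core peaks (adjusted exact p = 0.00512). The Initiator word TCAGT was in 33.6% of flanking and 33.4% of core windows, against 28.5% of all windows and 43.4% of windows centred on any TSS. In replicate 3 flanking minus core was -10.5 points (adjusted exact p = 0.000245). The other 8 motifs did not pass the test. They were the sites of Zelda (searched as CAGGTAG), of GATA factors (searched as AGATAAG), of Tinman (searched as TCAAGTG), of Su(H) (searched as GTGGGAA), of the insulator protein CTCF (searched as AGNTGGCGC) and of su(Hw) (searched as TGCATACTT), together with a repeat written CACACAC and Ohler motif 7 (searched as CATCNCTA). Each was in at most 6.46% of flanking windows.

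**Figure D4:**
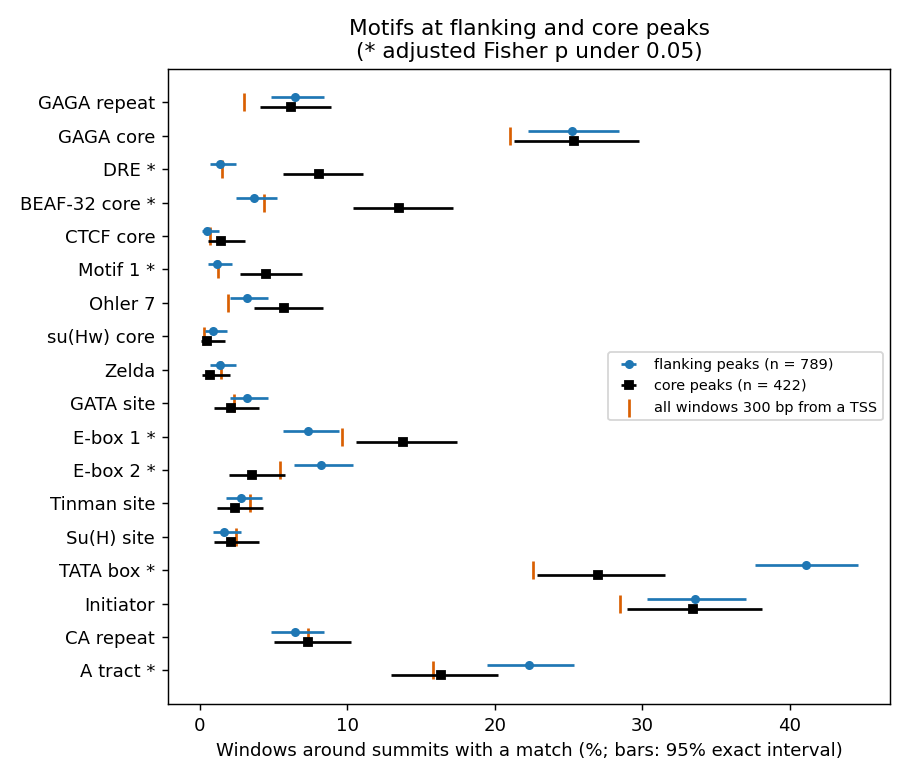
Share of windows (100 bp to each side of the summit) with a match to each motif at flanking peaks (circles) and core peaks (squares), with 95% exact intervals, and in all windows 300 bp from a TSS (vertical marks). E-box 1 and E-box 2 are the 2 E-box words of the text, in that order. The DRE, the BEAF-32 core, Motif 1 and E-box 1 sit lower at flanking peaks, and the TATA box, E-box 2 and the A tract higher.

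Among all 8192 words of 7 bases, with reverse complements merged, 57 (0.696%) were commoner at flanking than at core peaks and 109 (1.33%) were rarer (adjusted Fisher's exact p under 0.05). Neighbouring words overlap, so these are fewer patterns than words. Of the commoner ones 27 held no G or C, and TAATAAA led with 21.3% of flanking against 10.4% of core windows (adjusted exact p = 0.000784). ACTGATA was in 4.69% against 0.474% (adjusted exact p = 0.00569). Of the rarer ones none lacked G and C. GCCACAC was in 0.887% against 8.53% (adjusted exact p = 2.13e-07) and ACCGGAA in 1.01% against 8.29% (adjusted exact p = 9.85e-07). In windows of 35 to 45% GC no word was commoner and 4 were rarer. The list of replicate 2 alone gave 10 commoner and 69 rarer words, and that of replicate 3 gave 55 and 76.

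The word most enriched over all windows 300 bp from a TSS was also common at other hng2 peaks. All windows take in both sides of a TSS while most members lay upstream, so the ratios below are not matched for side. ACAGTGG was in 70 members (8.87%, 95% exact interval 6.98 to 11.1), against 4.98% of core and 7.71% of distal windows and 2.56% of all windows, a ratio of 3.47 to the last. It was in 8.49% of flanking windows in replicate 2 and 7.14% in replicate 3. The word CAGTGTA was in 4.82% of members against 1.65% of all windows, and in 8.42% of distal windows. The word CACAGTG was in 7.73% against 2.72%, and the word ACTGTGC in 5.83% against 2.36%. Of the 10 words with the highest ratios, AGCTTAG was in 3.80% of members against 1.499% of all windows and ACTGAGA in 4.31% against 1.80%. The word TAATATA was in 17.1% against 6.95%, the word ATATTAA in 19.4% against 7.95% and the word TCTTAAA in 10.6% against 4.48%. AGGGTAT was in 4.44% of flanking windows, against 0.948% of core, 2.86% of distal and 1.72% of all windows, and passed that test (adjusted Fisher's exact p = 0.0361). ATATTAA passed it too (adjusted exact p = 0.0147), and so did the word TCTTAAA with the same p. For ACAGTGG the adjusted p was 0.203.

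The letters ACAGTG, shared by the words ACAGTGG and CACAGTG, were in 16.3% of flanking, 16.4% of core and 16.2% of distal windows, against 8.72% of all windows. The shares in the 3 peak classes lay close together, and each was above that of all windows. The matches were not gathered at the summit: of 147 matches in flanking windows, 56 had their middle within 50 bp of the summit and 91 at 51 to 100 bp. The strongest members with ACAGTGG were those at RluA-1, ph-p, Rtnl1, PIG-F and CG1635, with signals from 1166 down to 882.

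Flanking summits named 747 of 13968 protein-coding genes (5.35%), counting a gene when the summit's nearest TSS was its own. Core summits named 423 (3.03%), and 32 genes had both. Replicate 2 named 768 genes and replicate 3 named 716, 742 ± 36.8 (SD, n = 2), with 376 genes in both. Lists of genes for embryonic pathways were counted against these shares. The lists were drawn up with earlier results of these data known, so the counts are descriptions and carry no test.

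Of 5 lists of signalling genes, those of the Notch and of the FGF and EGF receptor pathways had more genes with a flanking than with a core summit, and the other 3 had fewer. The Notch pathway, by which neighbouring cells set each other's fates, had 7 of 22 genes with a flanking summit (31.8%, 95% exact interval 13.9 to 54.9) and 2 with a core one. They were led by mam, the repressor genes E(spl)m7-HLH (signal 529, 376 bp upstream) and E(spl)m3-HLH (signal 479, 430 bp upstream), which Notch activates, and numb, an inhibitor of Notch (signal 354, 169 bp upstream). Replicate 2 named 6 of the 22 genes, replicate 3 named 6 and both named 4. The FGF and EGF receptor pathways had 5 of 24 (20.8%) against 2 core, with the EGF ligand spi (signal 508, 183 bp upstream) and the FGF ligand bnl (signal 445, 120 bp upstream). The EGF antagonist aos (signal 340) and the FGF receptor adaptor stumps (signal 339) followed. The Dpp pathway had 1 of 23, tkv, against 2 core. The Hedgehog and Wingless pathways had 2 of 30 (sgg and arr), against 4 core, and the insulin and TOR pathways 1 of 24 (foxo), against 3 core.

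Regulators of cell type were among the members too. Of GATA factors and blood regulators 4 of 18 (22.2%) had a flanking summit and 3 a core one. They were ush, the GATA factor srp (signal 1127, 284 bp downstream), the growth factor Pvf3 (signal 176) and its receptor Pvr (signal 145). The 4 summits lay downstream of the TSS in 5' UTRs. Replicate 2 named 2 of the 18 genes and replicate 3 named 4. Of dorsoventral and mesoderm genes it was 4 of 29 (13.8%) against 6 core, with ush, the heart regulator tin (signal 347, 210 bp upstream), stumps and the FGF receptor htl. Gut and fat body markers had 3 of 18, namely srp, fkh (signal 403) and bowl (signal 343). Trachea and epidermis markers had 3 of 20, namely trh (signal 484), bnl and grh (signal 138). Hox and homeotic regulators had 3 of 21, namely hth (signal 256), tsh (signal 165) and oc (signal 148). The list of neuronal markers had 2 of 23, elav (signal 617, 254 bp upstream) and loco, which is known as a glial gene.

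Chromatin and cell cycle genes had flanking summits more often than core ones, as did protein-coding genes as a whole (5.35% against 3.03%). Of Polycomb and Trithorax group genes 5 of 32 (15.6%) had a flanking summit, against 2 with a core one. They included ph-p, the histone methyltransferase gene E(z) (signal 514), Trl, which encodes the GAGA factor (signal 230), and the demethylase gene Utx (signal 160). Of genes for DNA replication and the cell cycle 6 of 37 (16.2%) had one, against 1 core, led by RnrS (signal 368), Dp (signal 315), CycE (signal 282) and Mcm2 (signal 176). Replicate 2 named 3 of the 37 genes, replicate 3 named 7 and both named 2. At CycE replicate 2's relaxed list had no summit within 100 bp, and the summit in replicate 3 ranked 4658. The summit at Mcm2 ranked 1633 in replicate 2 and 9874 in replicate 3. Insulator and architectural proteins had 3 of 23, with Cp190 (signal 524) and M1BP (signal 292), and Trl again. Replicate 2 named 1 of the 23 genes, replicate 3 named 1 and both named 1. At M1BP and Trl no summit within 100 bp was found in replicate 3's relaxed list. The members there did match summits of replicate 2 within 100 bp, at ranks 727 and 905. Heat shock genes and chaperones had 3 of 21 of each kind, with flanking summits at Hsp27 (signal 754), Hsp22 (signal 215) and Hsc70-3 (signal 184).

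Cytoplasmic ribosomal protein genes showed the opposite split, with more core than flanking summits. Of 84 cytoplasmic ribosomal protein genes 8 (9.52%, 95% exact interval 4.20 to 17.9) had a flanking summit and 53 (63.1%) a core one. The flanking ones included RpL23A (signal 368), RpL36A (signal 222) and RpS13 (signal 167). Axon guidance genes had 4 of 31 against 7 core, with flanking summits at unc-5, Lar, fra and robo1. Replicate 2 named 3 of the 31 genes, replicate 3 named 4 and both named 0. Translation factors had 3 of 54 against 5 core, and wing and appendage genes 2 of 28 (hth and tsh) against 3 core. Mitochondrial ribosomal proteins had 2 of 73 against 1 core, segmentation genes 1 of 24 (oc) against 1 core, and muscle and myoblast fusion genes 3 of 31 (Tm1, sls and Act87E) against 1 core.

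In 4 lists no gene had a flanking summit. It was 0 of 179 chemosensory receptors, which allows a share of up to 1.68%, 0 of 122 cuticle proteins (up to 2.46%), 0 of 111 canonical histones (up to 2.70%) and 0 of 21 ion channels (up to 14.3%). Histone genes are near-identical copies, so reads from them are uncertain.

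**Figure D5:**
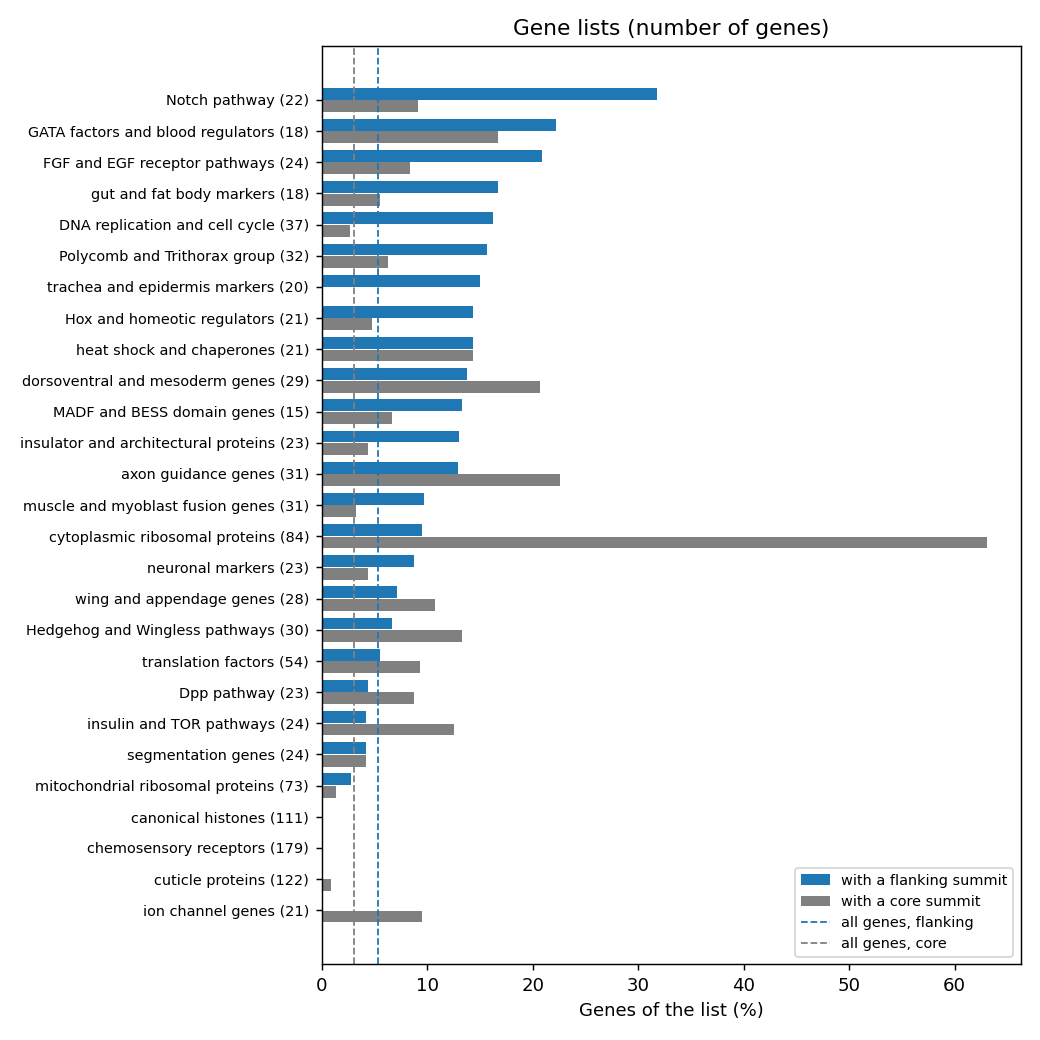
Share of the genes of each list with a flanking summit (blue, above) and with a core summit (grey, below), with the number of genes in brackets. The dashed lines are the shares over all protein-coding genes, 5.35% for flanking and 3.03% for core summits. The Notch pathway has the highest flanking share, 31.8%, and cytoplasmic ribosomal proteins the highest core share, 63.1%.

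Of the genes with a MADF or BESS domain, 2 of 15 had a flanking summit, hng3 and jigr1 (signal 172). The summit at hng3 (FBgn0035160) lay in an intron 418 bp downstream of the TSS, at rank 317 with a signal of 549, and ranked 285 in replicate 2 and 695 in replicate 3. The nearest optimal summit was 2398 bp from a TSS of hng2 and 7665 bp from a TSS of hng1, so neither gene had a flanking summit.

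Members were spread over the large arms much like start sites. 2L held 21.0% of them (18.8% of TSSs), 2R 17.2% (20.4%), 3L 18.9% (19.3%), 3R 23.8% (23.6%) and X 18.6% (17.0%). The small arm 4 held 3 members. At the inner limit, the members nearest the TSS were those at oxt and Atg8a, 1 bp inside it with signals of 197 and 162, and at mei-41, 102 bp away with 230. Just outside it lay the summits at CG9586, Apc and Dysb, 100 bp away with signals of 229, 193 and 150. At the outer limit, the last members were those at otk and CG10365, 500 bp away with signals of 323 and 217, and at bark, 499 bp away with 223. The first beyond it were those at Fbl6, CG17896 and CG14853, 502, 508 and 512 bp away with signals of 342, 359 and 176.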

How the data were processed

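ChIP-seq was done on 2 biological replicates that form 1 group. The authors called relaxed peak lists on dm6 for each replicate and for both pooled, against a control, and deposited an optimal list made with the irreproducible discovery rate, per the labels and the deposited file notes. The deposited signal of a peak is the caller's value against its control, not scaled between lists. The authors' −log10 q-value per peak and the summit offset in bp were also deposited, and the offset gave each summit. Aligner, peak caller and versions: not given in the sources used here. Lists on dm3 were not used here.

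Summits were set against TSSs of every transcript of the 13968 protein-coding genes (19275 positions) of Ensembl release 115, which carries FlyBase release 6.54. Replicates were compared through each one's 3170 strongest peaks, and summits within 100 bp counted as shared. Sequence windows reached 100 bp to each side of a summit. Shares carry 95% exact (Clopper-Pearson) intervals and differences Newcombe intervals. For a count of 0 the limit is 3 counts. Peak classes, 18 motifs and 8192 words of 7 bases were compared by Fisher's exact test, 2-sided, with p-values adjusted by Benjamini-Hochberg in each of these families and a threshold of 0.05. Python 3.11.15, NumPy 2.4.6, pandas 2.3.3, SciPy 1.17.1, statsmodels 0.14.6 and matplotlib 3.10.9 were used, and the test scripts were tested on simulated data.

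Named genes were the 25 members of highest signal held by both replicates, up to 4 genes of each list by signal, hng1 to hng3 and 3 members on each side of each limit. Named words were the 10 with the highest ratio to all windows among those in 30 or more members. Members, lists and tests were chosen with earlier results of these data known. Of 546 entries in 27 lists, 515 were found in the annotation beside 6 lists set by name pattern. The cuticle pattern was corrected after its values were seen, since it also took accessory gland genes. The comparison of GC content and the windows of 35 to 45% GC were chosen after seeing the data. Where TSSs of all genes were tried, annotated transposable elements were left out. The alternatives tried were each replicate alone, the peaks above the median signal, other TSS sets, other distance limits, other matching distances, other windows and another assignment of genes. Some results that the naming rule takes are not reported here.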

Additional observations from a re-analysis of the deposited data

How the results depend on the processing

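The larger upstream share of flanking than of core peaks kept its direction and passed in every alternative run, with differences from 12.8 to 30.005 points. The run with TSSs of coding transcripts gave the same peaks as the main run, so it was no separate check of any result. Each replicate alone gave a flanking share from 24.3 to 25.6%. With peaks above the median signal it was 27.9%, with TSSs of all genes 27.3%, from over 150 bp 18.2% and to 400 bp 21.8%. The upstream share of flanking peaks ran from 64.0 to 85.6% in the replicates, and GC content, flanking minus core, from -5.34 to -4.92 points. The GC difference was -8.38 points in windows reaching 50 bp to each side and -2.70 in windows reaching 200 bp. The share held by both replicates, flanking minus core, ran from -6.91 to 10.98 points between the replicates (adjusted Fisher's exact p = 0.0491 and 0.000121), so its direction depended on which list was used. Against distal peaks it ran from -6.69 to -1.98 points, and was -7.34 with peaks above the median signal (adjusted exact p = 0.00321). The share above the median signal, flanking minus distal, ran from -0.426 to 12.4 points. The share that stayed flanking was 94.7% in replicate 2 alone and 88.0% in replicate 3 alone.

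With peaks above the median signal, 427 genes had a flanking summit, list members fell to 41, against 68, no motif was higher, and 1 word of 7 bases was commoner and 24 rarer. In windows of 35 to 45% GC no motif was higher and 2 were lower, and 0 words were commoner and 4 rarer. Commoner words numbered 10 in the windows reaching 50 bp and 7 in those reaching 200 bp, rarer ones 28 and 24, and 65 with members up to 400 bp. In the replicates commoner words ran from 10 to 55 and rarer ones from 69 to 76. GAGAG, flanking minus core, ran from -5.01 points in replicate 3 to 7.93 in replicate 2, and was 9.08 in windows reaching 200 bp (adjusted exact p = 0.0112). The Initiator word ran from -10.5 points in replicate 3 to 0.913 in replicate 2, and the A tract was at -0.357 points in windows of 35 to 45% GC. The causes were not tested.

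No paired analysis was possible because the replicates form 1 group with nothing to pair. The unknown depth and the 2 replicates limit the precision, and the summits of replicate 3 lie less close to those of the optimal list.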
